A study of Mus musculus with 18 samples.

Results

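The genes described here encode the enzymes that make and break down the endocannabinoids and oleoylethanolamide, together with *Cnr1*, which encodes the cannabinoid receptor CB1. The set holds 10 genes of the 55487 in the count tables, taken by symbol: *Napepld* and *Abhd4*, *Faah* and *Naaa*, *Dagla* and *Daglb*, *Abhd6*, *Mgll* and *Abhd12*, and *Cnr1*. All 10 are protein-coding and all 10 were among the 12645 protein-coding genes tested. The set was drawn up with the genotype differences of these libraries in view, and *Abhd6* and *Faah* stand on the gene list that the study took from the same libraries, so genotype values of the members are given as a description.

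RNA was sequenced from whole-thickness ileum, the last segment of the small intestine, of 18 adult mice on a C57BL6/J background, 6 of the Control group, 6 labelled IEC-*Ppara* heterozygous and 6 labelled IEC-*Ppara* homozygous. IEC-*Ppara* mice carry 1 or 2 copies of a CAG-*Ppara*,-*EGFP* cassette, inserted at *Col1a1*, that Cre turns into its expressed orientation, and Villin-CreERT2 limits this to the intestinal epithelium. The cassette also expresses the reporter EGFP, and the strain comes from 1 targeted line. Control mice lacked Villin-CreERT2 and received tamoxifen like the others, at 100 mg/kg on 3 consecutive days at 8 to 13 weeks of age. Tissue was taken 2 weeks after the last injection. All groups were fed chow, without an added PPARα agonist. Controls were 3 females and 3 males, and each IEC-*Ppara* group was 2 females and 4 males. Libraries held 38528522 to 50376371 counts assigned to genes. *Ppara* itself, the check of the labels, was at 25.8 to 47.4 CPM (counts per 1000000 counts) in controls, 107 to 196 in heterozygous and 184 to 279 in homozygous libraries, with no overlap between controls and either IEC-*Ppara* group. The count does not separate the resident gene's transcripts from those of the cassette.

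Oleoylethanolamide is an N-acylethanolamine, a fatty acid joined to ethanolamine, which the small intestine makes from membrane phospholipid and which is known as a ligand of PPARα and a satiety signal. Anandamide belongs to the same chemical family and is an endocannabinoid, as is 2-arachidonoylglycerol, a monoacylglycerol. NAPE-PLD and ABHD4 act on the synthesis of N-acylethanolamines, and FAAH and NAAA hydrolyse them. The diacylglycerol lipases DAGLα and DAGLβ make 2-arachidonoylglycerol, while the lipases MGLL, ABHD6 and ABHD12 hydrolyse it.

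In control ileum *Abhd12*, *Abhd6* and *Abhd4* were the most abundant of these transcripts per length, and the receptor was the least. On the FPKM scale (fragments per kilobase of annotated exon and per 1000000, from the deposited tables), control means ± SD over 6 libraries ran from 45.3 ± 2.88 for *Abhd12* and 32.0 ± 5.77 for *Abhd6* through 22.2 ± 1.56 for *Abhd4*, 14.1 ± 0.783 for *Faah* and 10.4 ± 3.67 for *Mgll*. *Naaa* followed at 7.93 ± 1.04, *Dagla* at 3.64 ± 0.817, *Daglb* at 2.59 ± 0.344, *Napepld* at 1.99 ± 0.349 and *Cnr1* at 0.466 ± 0.298. Of the 9 steps between neighbours in this order, 4 had ranges that did not overlap over the controls: *Abhd6* above *Abhd4*, *Abhd4* above *Faah*, *Naaa* above *Dagla*, and *Napepld* above *Cnr1*. The ranges of the other neighbours overlapped. Within single libraries *Dagla* was above *Daglb* and *Daglb* above *Napepld* in 6 of 6 controls, *Abhd12* above *Abhd6* and *Faah* above *Mgll* in 5 of 6, and *Mgll* above *Naaa* in 4 of 6. Against all tested genes, *Abhd12* stood above 91.8% and *Cnr1* above 1.95% by FPKM. Over all 18 libraries *Abhd6* took the first place and *Abhd12* the second, and the rest of the order stayed. *Daglb* lies partly over *Rac1* on the other strand, and the library protocol does not mark strand. Only unambiguous reads were counted, so reads over any exon stretch that both genes share were left out. The effect of this on the level of *Daglb* was not tested.

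**Figure D1:**
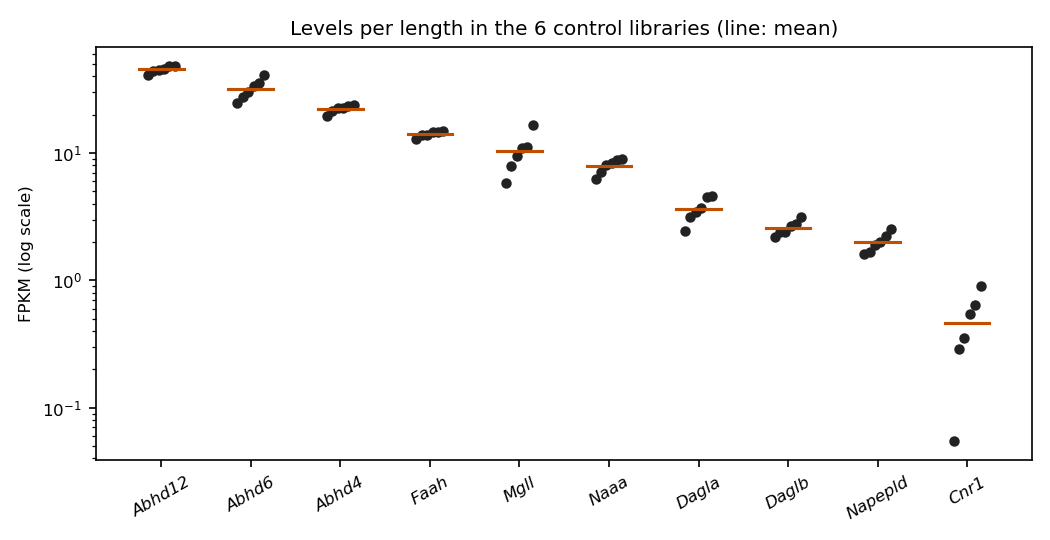
FPKM (log axis) of each member in the 6 control libraries, ordered by mean, with points for libraries and a line for the mean. Values span from 0.0547 for the lowest *Cnr1* library to 48.4 for the highest *Abhd12* library, and *Mgll* and *Cnr1* spread widest relative to their means.

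The question put to the genotypes was how this pathway stood when *Ppara* was overexpressed in the epithelium with 1 or 2 cassette copies. Controls lacked Villin-CreERT2, so contrasts against them also hold tamoxifen-activated Cre and EGFP. Neither can be told apart from *Ppara* in these groups. *Abhd6* was higher in every IEC-*Ppara* library than in any control, and *Faah* was lower in every homozygous library than in any control or heterozygous library. No other member had genotype ranges that separated. *Abhd6* was also the only member to pass an adjusted p under 0.05 in edgeR's quasi-likelihood test, in homozygous and in heterozygous mice against controls, where 0.411% and 0.293% of all tested genes passed. Ranges did not overlap for 2 of 10 members between homozygous and control, where 0.854% of all tested genes were separated in this way. The same held for 1 member between heterozygous and control (0.467% of all genes) and 1 between homozygous and heterozygous (0.269%). Since the members were chosen on these contrasts, nothing is read from these shares.

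**Figure D2:**
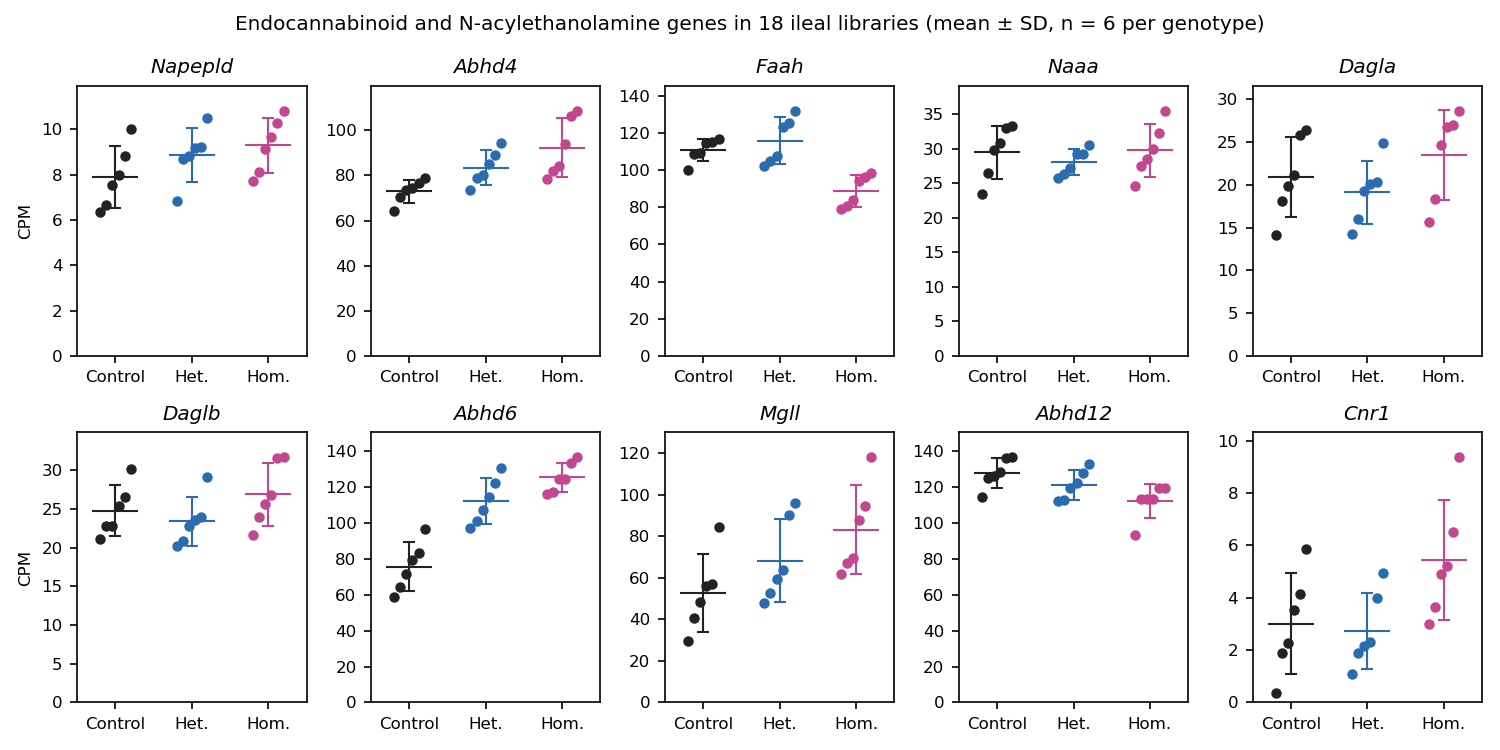
CPM of the 10 members in each library, by genotype, with points for libraries and mean ± SD for n = 6. *Abhd6* lies at 58.9 to 96.6 in controls and at 97.4 to 137 in the IEC-*Ppara* libraries, and *Faah* at 79.1 to 98.6 in homozygous libraries against 100.2 to 132 in the rest.

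Among the hydrolases of monoacylglycerols, *Abhd6* (ENSMUSG00000025277, chr14:8002902-8056763 in GRCm38, plus strand) encodes a membrane-bound serine hydrolase whose active site faces the cytosol. Its CPM had a lowest, median and highest value of 58.9, 75.4 and 96.6 in controls, 97.4, 111 and 131 in heterozygous, and 116, 125 and 137 in homozygous libraries. Every IEC-*Ppara* library stood above every control, the heterozygous ones by a narrow margin at their low end, and the 2 IEC-*Ppara* groups overlapped. The means were 75.7 ± 13.6, 112 ± 12.8 and 126 ± 8.20 (SD, n = 6 each), so that heterozygous libraries held 148% and homozygous libraries 166% of the control mean. The fitted log2 fold change was 0.73 (SE 0.12) for homozygous and 0.60 (SE 0.12) for heterozygous against control, and 0.13 (SE 0.12) between the IEC-*Ppara* groups. The heterozygous call did not survive every omission of a library: it held in 8 of 18, and was lost without control 2, 3, 4 or 5, heterozygous 3, 5 or 6, or homozygous 3, 5 or 6. The homozygous call held in all 18, with log2 fold changes from 0.66 to 0.81.

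PPARα binds DNA as a heterodimer with RXR at direct repeats of AGGTCA with 1 base between them, so the 250 bases before the annotated starts are shown for the 2 members whose ranges separated. Sequences come from RefSeq on GRCm38.p6, and capitals mark the best match, on either strand, to that direct repeat of 12 scored letters.

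*Abhd6*, chr14:8002638-8002887, plus strand: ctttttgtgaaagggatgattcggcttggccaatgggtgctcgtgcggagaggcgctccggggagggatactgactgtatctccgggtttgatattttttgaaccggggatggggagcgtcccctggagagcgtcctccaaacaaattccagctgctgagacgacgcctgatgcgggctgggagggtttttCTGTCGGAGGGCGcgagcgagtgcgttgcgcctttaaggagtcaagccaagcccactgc

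*Faah*, chr4:116017925-116018174, minus strand: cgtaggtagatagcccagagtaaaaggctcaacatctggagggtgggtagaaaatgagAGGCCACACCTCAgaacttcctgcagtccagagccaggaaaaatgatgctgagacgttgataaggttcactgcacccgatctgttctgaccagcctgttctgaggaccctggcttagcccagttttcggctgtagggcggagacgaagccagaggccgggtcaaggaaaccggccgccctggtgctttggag

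In the *Abhd6* window the best match had 7 of 12 letters, and around the gene's other annotated start the match AGGACCGCGGTCA had 9 of 12, 20 bases before that start. The *Faah* window had 9 of 12, 192 bases before the start. Across all 32851 promoters of this length in the table, 21.3% held a match of 9 or more letters and 14.0% held AGGTCA alone, on either strand. RefSeq windows were matched for 8 of the 10 members, with 13 windows in all. AGGTCA itself was present in 1 of the 13, a *Cnr1* window, and among the other members the best repeat match was 9 letters for *Daglb* and 8 for each of the rest. *Dagla* and *Abhd12* had no entry.

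*Mgll* (chr6:88724412-88828360, plus strand), which encodes monoacylglycerol lipase, the main hydrolase of 2-arachidonoylglycerol in many tissues, moved in the same direction as *Abhd6* but with wide spread. Its CPM ran from 29.8 through a median of 52.1 to 84.6 in controls, from 48.1 through 61.5 to 95.9 in heterozygous and from 61.7 through 78.7 to 118 in homozygous libraries. The groups overlapped, with 3 of 6 homozygous libraries above all controls. Means were 52.6 ± 18.7, 68.3 ± 19.9 and 83.2 ± 21.4, and the log2 fold change was 0.67 (SE 0.21) for homozygous and 0.41 (SE 0.21) for heterozygous mice, neither of which passed. *Abhd12* (chr2:150832493-150904741, minus strand), an enzyme of the endoplasmic reticulum best known as a lysophosphatidylserine lipase, lay the other way. Controls held 115 to 137 CPM (median 127), heterozygous libraries 112 to 133 (median 121) and homozygous libraries 93.5 to 120 (median 113). With 4 of 6 homozygous libraries under all controls, its log2 fold change was -0.19 (SE 0.08) and did not pass.

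The makeup of the 3 monoacylglycerol hydrolase transcripts was described on the FPKM scale, without a test. *Abhd12* was 51.8% ± 4.58 of their sum in controls, 41.5% ± 2.57 in heterozygous and 36.4% ± 1.71 in homozygous libraries. The share of *Abhd6* went from 36.4% ± 5.02 through 45.6% ± 3.00 to 48.7% ± 3.08. *Mgll* made up 11.8% ± 3.85, 12.9% ± 3.25 and 14.9% ± 2.98. Ranges overlapped between controls and heterozygous and between heterozygous and homozygous libraries for each of the 3 shares. Between controls (44.7 to 55.8%) and homozygous libraries (34.7 to 38.7%) the share of *Abhd12* did not overlap, while those of *Abhd6* and *Mgll* did. The sum behind this share holds *Abhd6*, chosen with this contrast in view, and the CPM of *Abhd12* itself overlapped between these groups. The share of *Abhd12* is therefore not a result apart from that of *Abhd6*. *Abhd6* was above *Abhd12* in 1 of 6 controls (control 1), 5 of 6 heterozygous libraries (all but heterozygous 1) and 6 of 6 homozygous libraries. The sum itself came to 80.2 to 95.7 FPKM in controls, to 94.9 to 112 in heterozygous libraries and to 95.5 to 118 in homozygous ones.

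Of the enzymes that degrade N-acylethanolamines, *Faah* (ENSMUSG00000034171, chr4:115967145-116017926, minus strand) encodes fatty acid amide hydrolase, the membrane enzyme that cleaves oleoylethanolamide and anandamide to the free fatty acid and ethanolamine. The lowest, median and highest CPM of controls were 100.2, 112 and 117, those of heterozygous libraries 102, 115 and 132, and those of homozygous libraries 79.1, 89.2 and 98.6. The homozygous range lay wholly under the others, with a narrow gap to the lowest control, and the heterozygous libraries overlapped the controls. Homozygous libraries held 80.3% of the control mean and 76.7% of the heterozygous mean. The log2 fold change was -0.32 (SE 0.08) against control and -0.41 (SE 0.08) against heterozygous, and 0.09 (SE 0.08) for heterozygous against control. *Faah* did not pass the adjusted threshold with edgeR in any of the 3 contrasts, while DESeq2 called it in both homozygous contrasts.

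*Naaa* (chr5:92257659-92278170, minus strand) encodes a lysosomal amidase that works at acid pH and prefers palmitoylethanolamide. It ranged from 23.5 to 33.3 CPM in controls (median 30.4), 25.7 to 30.6 in heterozygous (median 28.2) and 24.7 to 35.6 in homozygous libraries (median 29.3). The groups overlapped throughout, and the homozygous log2 fold change was 0.02 (95% interval -0.14 to 0.18). *Faah* was 64.1% ± 3.76 of the sum of both hydrolases' FPKM in controls, 66.1% ± 3.10 in heterozygous and 58.7% ± 4.07 in homozygous libraries, with overlapping ranges.

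On the side of synthesis, *Napepld* (chr5:21662901-21701396, minus strand) encodes the phospholipase D that releases N-acylethanolamines from their phospholipid precursor. Controls held 6.35 to 10.0 CPM, heterozygous libraries 6.83 to 10.5 and homozygous libraries 7.71 to 10.8, with log2 fold changes of 0.20 (SE 0.11) and 0.24 (SE 0.11) against control that did not pass. *Abhd4* (chr14:54254188-54270637, plus strand), a lipase that removes acyl chains from the same precursor, measured 64.3, 74.0 and 78.8 CPM (lowest, median, highest) in controls, 73.4, 82.5 and 94.5 in heterozygous, and 78.6, 89.0 and 109 in homozygous libraries. All but 1 of the homozygous libraries and 4 of 6 heterozygous libraries lay above all controls. The log2 fold change was 0.34 (SE 0.08) in homozygous and 0.23 (SE 0.08) in heterozygous mice, and neither passed with edgeR. DESeq2 called the homozygous difference, and so did edgeR without heterozygous library 2 or without homozygous library 6.

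The diacylglycerol lipases showed overlapping groups. *Dagla* (chr19:10245265-10304877, minus strand) was at 14.1 to 26.4 CPM in controls, 14.3 to 24.8 in heterozygous and 15.7 to 28.7 in homozygous libraries. *Daglb* (chr5:143464584-143505942, plus strand) was at 21.1 to 30.2, 20.2 to 29.2 and 21.6 to 31.7 CPM. Homozygous log2 fold changes against control were 0.17 (95% interval -0.14 to 0.49) and 0.12 (-0.08 to 0.32). *Dagla* made up 58.0% ± 3.54, 57.3% ± 4.92 and 58.9% ± 3.98 of their summed FPKM in control, heterozygous and homozygous libraries, so the balance of both enzymes stayed within the spread between mice.

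*Cnr1* (chr4:33924593-33948831, plus strand) encodes CB1, which in the gut is best known from enteric neurons. It was the rarest member, with 14 to 412 raw counts per library, and passed the filter on low values (CPM over 3 in at least 4 libraries) through 3 control, 2 heterozygous and 5 homozygous libraries. The lowest, median and highest CPM were 0.353, 2.91 and 5.84 for controls, 1.08, 2.24 and 4.94 for heterozygous libraries, and 3.00, 5.05 and 9.37 for homozygous libraries. The groups overlapped, and control 6 and heterozygous 3 held the lowest values of their groups. The homozygous log2 fold change against control was 0.87 (SE 0.46), and did not pass.

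**Figure D3:**
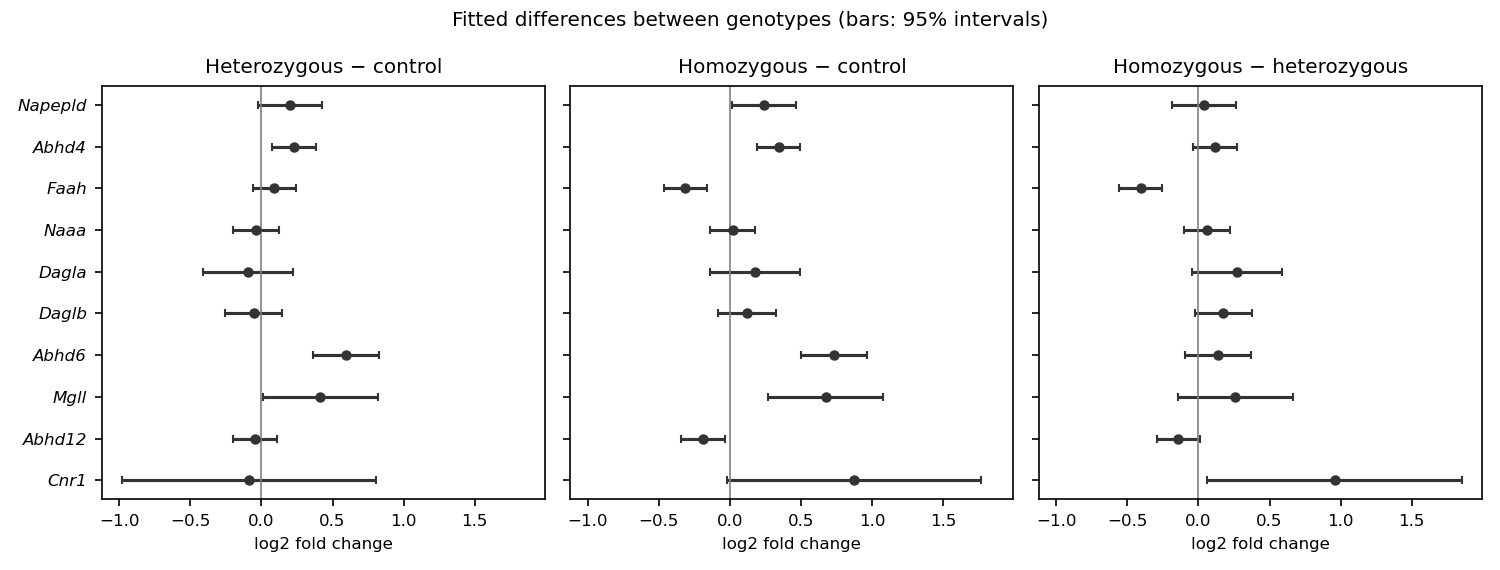
Fitted log2 fold change of each member in the 3 genotype contrasts, with 95% intervals. *Abhd6* lies at 0.60 and 0.73 against control, *Faah* at -0.32 and -0.41 in the homozygous contrasts, and the bars of *Cnr1* are the widest.

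Across the set, homozygous against control gave 8 positive and 2 negative log2 fold changes with a median of 0.21, beside 0.00 over all tested genes. At an unadjusted p under 0.05 there were 6 members (*Abhd4*, *Abhd6*, *Mgll* and *Napepld* higher, *Faah* and *Abhd12* lower), where 8.06% of all genes reached that level. Heterozygous against control gave 5 positive and 5 negative values with a median of 0.03, and 2 members (*Abhd6* and *Abhd4*, both higher) had an unadjusted p under 0.05, where 5.29% of all genes did. Homozygous against heterozygous, where 0.00791% of all genes passed, gave no edgeR call among the members. There *Faah* alone had an unadjusted p under 0.05, a level that 7.61% of all genes reached. DESeq2 called 1 member, *Faah*, and 10 of all 12645 tested genes. The heterozygous and homozygous contrasts against control share the control libraries.

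The tissue was whole-thickness, so fewer cells of a type and less RNA per cell cannot be told apart. Marker lists were summed in each library, and their differences between genotypes were not tested. The 10 enteric neuron markers summed to 23.1 to 97.4 CPM in controls, 44.2 to 90.1 in heterozygous and 76.6 to 172 in homozygous libraries, and the 10 smooth muscle markers to 521 to 5698, 657 to 4156 and 3890 to 8970 CPM. The 8 fibroblast markers summed to 1172 to 3025, 973 to 2151 and 1685 to 3554 CPM. The 10 B cell markers summed to 18.4 to 567, 15.2 to 321 and 12.6 to 94.6 CPM, and the T cell list of 8 genes to 21.1 to 73.1, 14.8 to 49.1 and 17.9 to 25.6 CPM. Each of these ranges overlapped between controls and homozygous libraries. The 6 Paneth cell markers summed to 12404 to 17672, 14455 to 17637 and 9440 to 14299 CPM. Their homozygous range overlapped that of controls but lay wholly under the heterozygous one. Enterocyte markers, 10 of 10 detected, were at 20375 to 30340, 21130 to 29003 and 20683 to 28859 CPM, and none of the listed markers of any type was at 0 in any library. With the enteric neuron score as a covariate, the homozygous log2 fold change of *Cnr1* was 0.14 (SE 0.22) in place of 0.87 and that of *Mgll* 0.39 (SE 0.17) in place of 0.67. Over all alternatives the *Cnr1* value ran from 0.14 to 1.53, the latter with the enterocyte score, and over left-out libraries from 0.64 to 1.17. With the enteric neuron score *Abhd6* stood at 0.86 (SE 0.12) and *Faah* at -0.23 (SE 0.07), and the smooth muscle score gave 0.81 and -0.24. With the enterocyte score, *Abhd6* was at 0.60 (SE 0.11) and still called, *Faah* at -0.38 (SE 0.08) and called, and *Mgll* at 0.94 (SE 0.20) and called. The heterozygous difference of *Abhd6* in that fit was 0.43 (SE 0.12) and not called. The enterocyte list holds *Fabp2*, whose mean CPM went from 1069 in controls to 2049 in homozygous libraries. In the same list *Apoa4* went from 32.5 to 82.4, while others were lower, such as *Sis*, from 1876 to 1469. The fibroblast, enteric neuron and enterocyte covariates were added after the data were seen.

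Variation between mice of the same genotype played no part in choosing the members, and it was compared with 11 marker lists after centring every value within its genotype. Of 110 relations over 18 libraries, 9 passed a permutation test within genotypes (two-sided, 100000 resamples, Benjamini-Hochberg adjusted over the 110), all of them positive. They fell on 3 members: *Cnr1*, *Mgll* and *Naaa*. The lists were not independent of each other. Control 6 was the lowest control for smooth muscle (-2.31), enteric neurons (-1.91), enteric glia (-0.867) and fibroblasts (-0.707). Heterozygous 3 was the lowest of its group for smooth muscle (-1.85), neurons (-1.02) and glia (-0.480). Relations of 1 member to several lists are therefore not separate results.

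*Cnr1* followed the enteric neuron list (Pearson r 0.941, Spearman rho 0.847, permutation p 1e-05, the smallest the resamples can give, adjusted p 0.000733). It also followed smooth muscle (r 0.904, rho 0.802, permutation p 3.0e-05, adjusted p 0.000825) and enteric glia (r 0.914, rho 0.800, permutation p 2.0e-05, adjusted p 0.000733). Without control 6 and heterozygous 3, which lay farthest from the median of each list, r was 0.819, 0.778 and 0.764. Within single genotypes r with the neuron list was 0.984 for controls, 0.831 for heterozygous and 0.897 for homozygous mice. The glial list was scored on 3 of its 6 genes, and *Erbb3*, which epithelium also expresses, made up nearly all of its summed CPM.

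*Mgll* followed the fibroblast list most closely (r 0.897, rho 0.825, permutation p 2.0e-05, adjusted p 0.000733), and r was 0.873 without the 2 farthest libraries and 0.961, 0.884 and 0.781 within the genotypes. Relations to macrophages and dendritic cells (r 0.757, rho 0.606, permutation p 0.00027, adjusted p 0.00495) and to enteroendocrine cells (r 0.762, rho 0.725, permutation p 0.00097, adjusted p 0.0152) also passed. Without their 2 farthest libraries these were 0.794 and 0.623. Those to enteric glia (r 0.737, rho 0.707, permutation p 0.00215, adjusted p 0.0296) and enteric neurons (r 0.718, rho 0.713, permutation p 0.00287, adjusted p 0.0351) passed as well, with 0.680 and 0.692 without the 2 farthest. These last 2 relations held in 12 and 9 of the 18 fits that each left out 1 library, and the enteroendocrine relation was lost without control 6. The enteroendocrine genes did not spread alike over the libraries. *Cpe* ran from 12.3 to 181 CPM and *Scg3* from 2.52 to 10.4, while *Chga* ran from 64.5 to 110 and *Chgb* from 102 to 154. Which of the genes on that list carried its relation to *Mgll* was not tested.

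*Naaa* followed the macrophage and dendritic cell list (r 0.824, rho 0.901, permutation p 7.0e-05, adjusted p 0.00154), with r 0.806 without homozygous 3 and 4 and 0.773, 0.973 and 0.862 within the genotypes. This list summed to 588 to 1281, 601 to 1110 and 609 to 1653 CPM in control, heterozygous and homozygous libraries. The relation held in all 18 fits that each left out 1 library, as did the *Cnr1* relations and those of *Mgll* to fibroblasts and to macrophages and dendritic cells.

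**Figure D4:**
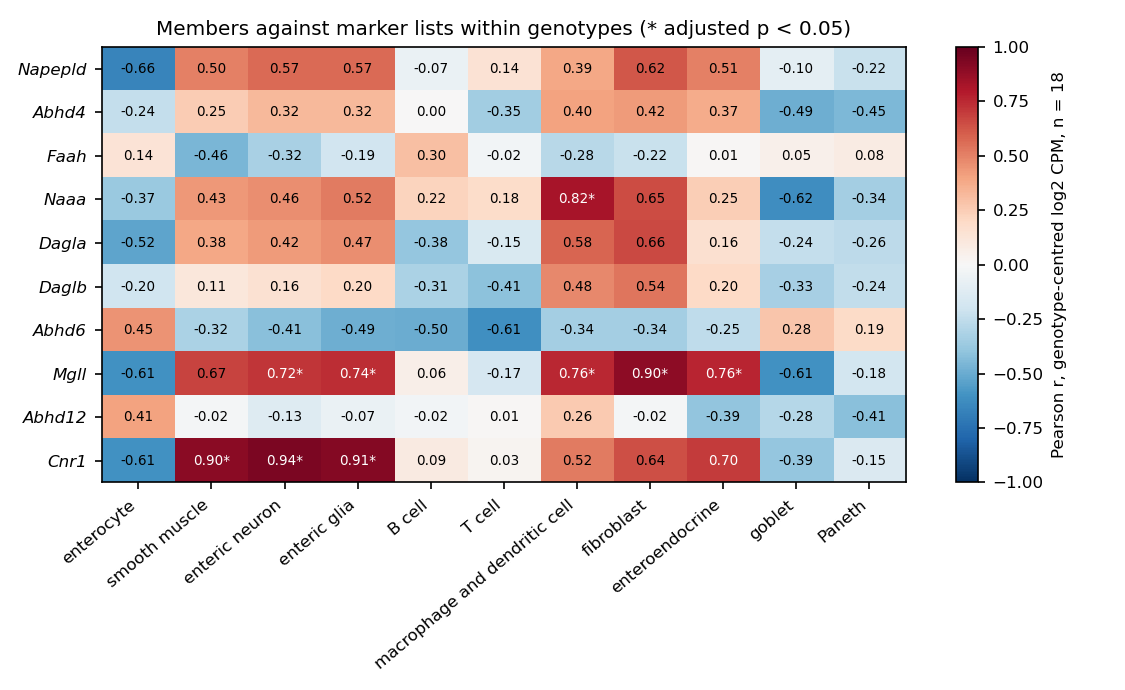
Pearson r between each member and each marker list score over 18 libraries, with values centred within genotype. Stars mark the 9 relations past an adjusted p of 0.05, which lie in the rows of *Cnr1*, *Mgll* and *Naaa*, and the highest is 0.94 for *Cnr1* and enteric neurons.

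**Figure D5:**
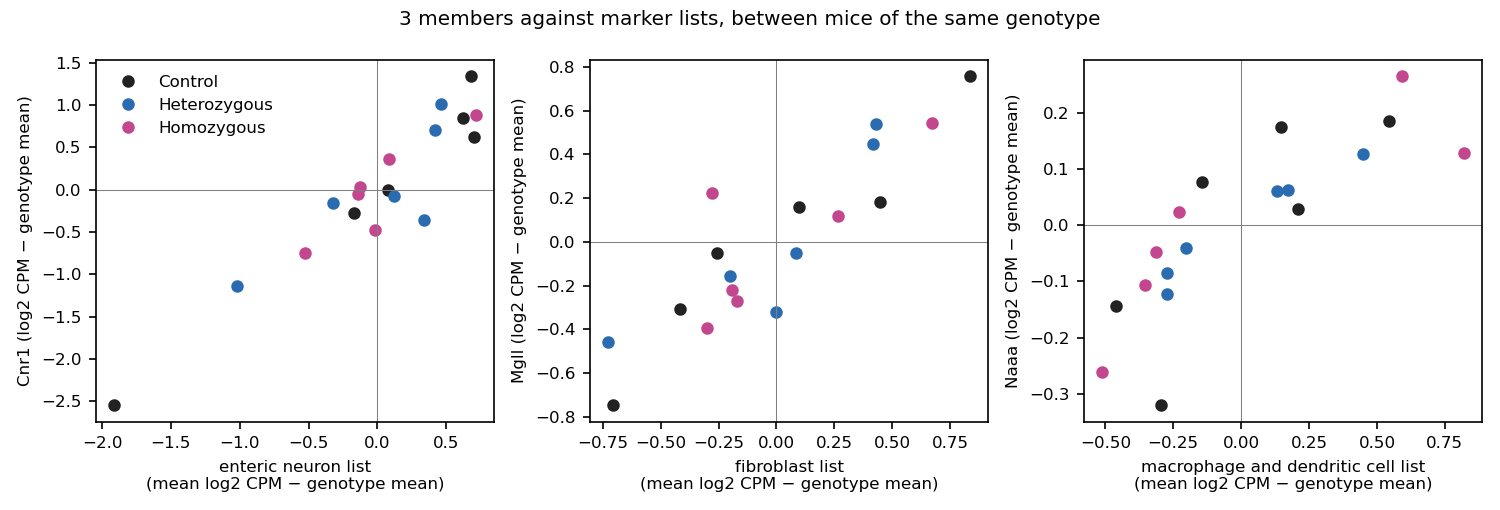
Centred log2 CPM of *Cnr1*, *Mgll* and *Naaa* against the centred score of the marker list each followed most closely, with 1 point per library coloured by genotype. The correlations are 0.941, 0.897 and 0.824, and 1 control library lies far to the low end of the *Cnr1* panel.

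*Abhd6*, *Faah*, *Abhd4*, *Abhd12*, *Napepld*, *Dagla* and *Daglb* had no relation past the threshold with any of the 11 lists. For *Abhd6* the relation with the enterocyte list was 0.45 and the strongest in size was -0.61 with T cells, which did not pass (lowest adjusted p 0.120, permutation test). The T cell score used 5 of the 8 listed genes, and r was -0.46 without controls 2 and 3 and -0.72, -0.80 and 0.80 within control, heterozygous and homozygous mice. Controls 2 and 3 also stood apart from the other controls in the B cell score, 3.45 and 3.12 above the control mean on the log2 scale. Heterozygous 2 and homozygous 1 were 3.68 and 2.38 above the means of their own groups in that score. Without control 2 or without control 3 the homozygous log2 fold change of *Abhd6* was 0.66 or 0.72 and called, and the heterozygous one 0.52 or 0.59 and not called. The part of T cells in the *Abhd6* difference was not tested. For *Faah* the strongest was -0.46 with smooth muscle, with a lowest adjusted p of 0.141 in the permutation test.

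No relation between a member and *Ppara* passed between mice of the same genotype. The centred correlation was 0.38 for *Abhd6* (permutation p 0.183) and 0.43 for *Faah* (permutation p 0.0912), and the lowest adjusted p over the 10 members was 0.456 in the permutation test. Of the 45 pairs of members none passed either, with r from -0.60 to 0.64 and a lowest adjusted p of 0.147 in the permutation test.

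Sex also played no part in the choice. Females and males were compared with genotype as a covariate, and no member was called by edgeR, by DESeq2 or at an unadjusted p under 0.05 in edgeR, where edgeR called 0.0554% of all genes and 3.39% had an unadjusted p under 0.05. The log2 fold change of females against males was 0.09 for *Abhd6* (95% interval -0.11 to 0.29) and -0.01 for *Faah* (-0.14 to 0.12). The largest in size was -0.19 for *Mgll* (-0.54 to 0.16).

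The other genes of the pathway, listed for their known roles in alternative synthesis, alternative breakdown, receptors and carriers, numbered 28, of which 19 were tested. *Ppara* was the only gene of the list called, with a log2 fold change of 2.51 (SE 0.18) in homozygous and 1.92 (SE 0.18) in heterozygous mice (edgeR adjusted p 2.1e-07 and 8.4e-06). The median homozygous log2 fold change over the 19 was -0.01, close to the median of all genes, and 4 of the 19 had an unadjusted p under 0.05, where 8.06% of all genes did. After *Ppara*, the largest homozygous differences were for *Inpp5d*, a lipid phosphatase of blood cells, and *Hspa1a*, a heat shock protein reported to carry anandamide. They were -0.55 (SE 0.25, edgeR adjusted p 0.599) and 0.52 (SE 0.39, edgeR adjusted p 0.763). The lowest, median and highest CPM of *Inpp5d* were 21.5, 27.2 and 66.5 in controls and 19.3, 23.1 and 34.4 in homozygous libraries. Ranges separated from controls for 2 further genes, named after their values were seen. Among all tested genes 0.854% separated in this way in homozygous and 0.467% in heterozygous libraries. *Scp2*, a sterol carrier protein of peroxisomes, was at 239 to 277 CPM in controls and 279 to 370 in homozygous libraries (log2 fold change 0.27, SE 0.08, edgeR adjusted p 0.239). *Asah1*, the lysosomal acid ceramidase, was at 81.5 to 87.8 CPM in controls and 74.3 to 79.8 in heterozygous libraries, and was not called. *Gpr55*, a lysophosphatidylinositol receptor that also answers some cannabinoids, was at 10.1 ± 1.13 CPM in controls and 7.11 ± 1.39 in homozygous libraries. Its log2 fold change was -0.50 (SE 0.13, edgeR adjusted p 0.142), and it is named because DESeq2 called it, as did edgeR without homozygous library 1. *Cnr2*, which encodes the other cannabinoid receptor, did not pass the filter on low values, and its lowest, median and highest CPM were 1.02, 1.70 and 13.3 for controls, 1.12, 1.20 and 8.07 for heterozygous libraries, and 1.11, 1.63 and 2.68 for homozygous libraries. B cells, which are known to express it, had the marker sums given above, and their part in its level was not tested. Between homozygous and heterozygous mice no gene of this list was called by edgeR or DESeq2, and 4 had an unadjusted p under 0.05 in edgeR, where 7.61% of all genes did.

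*Abhd6*, *Abhd4* and *Abhd12* belong to the α/β hydrolase domain family, and the 17 other genes of that family were examined beside them, 14 of which were tested. None was called by edgeR or DESeq2 in either IEC-*Ppara* group against control, and 1 of 14 had an unadjusted p under 0.05 in edgeR in each contrast, where 8.06% (homozygous) and 5.29% (heterozygous) of all genes did. Their median homozygous log2 fold change was 0.04 and their range -0.14 to 0.25. The largest was 0.25 (SE 0.09, edgeR adjusted p 0.448) for *Abhd3*, a phospholipase acting on medium-chain phosphatidylcholines, followed by 0.16 (SE 0.09, edgeR adjusted p 0.691) for *Abhd17a*, a depalmitoylase, and 0.16 (SE 0.17, edgeR adjusted p 0.861) for *Abhd8*.

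The genes whose log2 CPM was most like that of *Abhd6* over the 18 libraries, genotype differences included, were *Acadvl* (Pearson r 0.930) and *Acadl* (0.912), which encode acyl-CoA dehydrogenases of mitochondria, *Hsd17b4* (0.920), a peroxisomal enzyme of fatty acid oxidation, *Gal3st2b* (0.912), a sulfotransferase, and *Fabp2* (0.908), the intestinal fatty acid binding protein. After centring within genotype these were 0.667, 0.801, 0.647, 0.517 and 0.609 in the same order. Mean CPM of *Acadvl* was 66.6 ± 7.84, 94.0 ± 7.93 and 98.9 ± 5.93 in control, heterozygous and homozygous libraries, and that of *Hsd17b4* was 160 ± 19.6, 235 ± 36.3 and 250 ± 12.6.

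Among the genes most like *Faah* were *Vwce* (r 0.843), *Rcbtb1* (0.837), *Baiap2l2* (0.834), a protein of epithelial microvilli, and *Slc6a20b* (0.828), a transporter of the proline family. Centred within genotype they stood at 0.725, 0.653, 0.807 and 0.621. *Baiap2l2* was at 399 ± 28.8, 412 ± 50.2 and 357 ± 40.9 CPM in control, heterozygous and homozygous libraries. These correlations describe 18 libraries that share the genotype contrast on which *Abhd6* and *Faah* were chosen.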

How the data were processed

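Whole-thickness ileum of 18 mice was sequenced as poly-A selected, paired-end RNA libraries. Per the labels and the study's methods, the authors aligned reads to GRCm38 with STAR and counted uniquely aligned, unambiguous reads per gene with featureCounts. The deposited gene tables hold raw counts and FPKM per library, and the authors' CPM and moderated log2 CPM tables hold all 18. Raw counts were the input of every test, FPKM was used for levels and shares compared between genes, and the deposited log2 CPM only as an alternative. CPM printed here are the authors' deposited values.

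Genes with CPM over 3 in at least 4 libraries (13709), protein-coding ones only (12645), were fitted with edgeR 4.0.16 in R 4.3.3 (TMM, glmQLFit and glmQLFTest), with all 18 libraries in 1 fit and Benjamini-Hochberg adjustment over all tested genes. A gene was called at an adjusted p under 0.05. DESeq2 1.42.0, other scalings and filters, covariates and the omission of each library were alternatives. Marker list scores are means of log2 CPM (prior count 2). The study's methods state that littermates were used, but the labels do not tie libraries to litters, so litter was not in the fit and p-values measure the spread between these samples. The members and all gene lists were chosen with earlier results of these data known. Named beside the members were list genes called in any contrast, the 3 largest homozygous changes of each list, and the 5 genes most like *Abhd6* and *Faah*, of which 1 is not reported here.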

Additional observations from a re-analysis of the deposited data

Results flagged for a closer look

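*Abhd12* in homozygous library 5 was at 93.5 CPM, the lowest of its group, with the nearest library at 113 and the highest at 120. Its gap to the nearest library is 0.761 of the group's range, above Dixon's critical value of 0.625 for 6 samples. This was the only library to stand apart in this way among 33 groups of libraries examined, and chance alone marks about 1 in 20 such groups. Without homozygous library 5 the log2 fold change of *Abhd12* against control was -0.14, beside -0.19 with it.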

How the results depend on the processing

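The members called in homozygous against control mice were 1 by edgeR, 3 by DESeq2 (*Abhd4*, *Abhd6* and *Faah*), 3 with an enterocyte covariate (*Abhd6*, *Faah* and *Mgll*) and 1 to 2 when each library was left out in turn. Against heterozygous libraries DESeq2 called 1 (*Faah*), where edgeR called 0. In heterozygous against control mice 1 was called, but 0 when only the 2 groups were fitted, 0 with the replicate number as a block, 0 with the enterocyte covariate, 2 with a fibroblast covariate (*Abhd6* and *Mgll*), and 0 to 1 when each library was left out. Same-numbered libraries correlated from -0.45 to 0.52, with 8 of 18 pairs above 0.1. Such values cannot tell whether the numbers pair the libraries, for instance by litter. The block was not used elsewhere. Pathway genes called in homozygous mice were 2 by DESeq2 (*Gpr55* and *Ppara*) and 1 to 2 when each library was left out. The count over all genes moved from 52, 37 and 1 to 136, 80 and 10 with DESeq2 and to 192, 22 and 0 with the enterocyte covariate. In heterozygous against control mice it was 47 with the fibroblast covariate, 23 with only the 2 groups and 22 with the replicate block. Relations with marker lists numbered 7 (without control 2 or 3, or homozygous 2 or 3) to 13 (without heterozygous 3). Of 1180 refitted member values 1146 kept their sign, and none that was called reversed. The cause of these shifts was not tested. *Cnr1*, at 14 to 412 counts per library, had the largest standard errors among the members.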
